A study of Mus musculus with 2 samples.

Results

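The 10 genes described here make up the creatine and adenine nucleotide energy buffer of the mouse calf muscle, out of 55536 annotated genes measured in the same libraries. They were taken as a named list: the creatine kinases Ckm, Ckb, Ckmt2 and Ckmt1, the creatine transporter Slc6a8, the creatine synthesis enzymes Gatm and Gamt, the adenylate kinase Ak1, and the AMP deaminases Ampd1 and Ampd3. The rule names the genes and uses no threshold on a value. The series holds total RNA of the gastrocnemius of male B6CASTF1/J mice aged 18 to 20 months. This strain is the first-generation hybrid of C57BL/6J and CAST/EiJ, and no treatment or engineered allele is named. All of it is 1 group with 2 libraries, each made from 300 ng of RNA and numbered as biological replicates 1 and 2. In the labels they are 2 separate males that share 1 donor record, so the spread between them may be technical in part.

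Contracting muscle spends ATP faster than mitochondria can make it, and creatine kinases bridge the gap by moving phosphate between phosphocreatine and ADP. The cytosolic kinases (Ckm in muscle, Ckb in brain and many other tissues) rebuild ATP near its sites of use, and the mitochondrial kinases (Ckmt2 in striated muscle, Ckmt1 in most other tissues) load creatine with phosphate where ATP is made. Muscle makes little creatine of its own: Gatm is known for its activity in kidney and Gamt for its activity in liver, and Slc6a8 carries creatine from the blood into the fibre. Adenylate kinase joins 2 ADP into ATP and AMP, and AMP deaminase removes the AMP as IMP, the entry step of the purine nucleotide cycle.

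Total expected counts, which are reads per gene after ambiguous reads are divided among their sources, were 40795740 in replicate 1 and 44919441 in replicate 2. The tissue label was checked against markers: summed over 13 fast fibre genes the level was 110737 TPM and 84737.3 TPM (transcript abundance scaled by length and by library total), and 6 neuronal genes summed to 0.09 and 0.12 TPM. Mitochondrially encoded genes held 12.2% of counts in replicate 1 and 17.5% in replicate 2. The non-coding RNAs Rn7s1 and Rn7s2 took 28.7% and 22.7% of TPM, and over nuclear protein-coding genes alone the members' levels were 2.22 to 2.26 times higher. The libraries differed in fibre markers: 11 of 11 slow fibre genes were called higher in replicate 2. Throughout, a gene was called different between the libraries when a 2-sided exact binomial test gave a Benjamini-Hochberg adjusted p below 0.05 and the scaled counts differed at least 2-fold. Of 14959 genes tested, 6.18% were called, with 4.47% higher in replicate 2 and 1.7% higher in replicate 1. The test holds counting error only and compares these 2 libraries, not conditions. In tissue RNA, fewer cells of a type and less RNA per cell cannot be told apart.

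The 4 creatine kinases share a catalytic core, which is the reason to show a stretch of it before comparing their levels: reads of one gene must be told from those of its relatives. The stretch below is a 60-base window of the coding sequence from the GENCODE M21 transcripts, 5′ to 3′, with the 44 bases that are identical in all 4 in capitals.
Ckm: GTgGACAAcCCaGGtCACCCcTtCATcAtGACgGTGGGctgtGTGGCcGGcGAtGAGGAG
Ckb: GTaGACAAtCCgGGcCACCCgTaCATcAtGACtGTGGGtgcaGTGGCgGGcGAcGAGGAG
Ckmt2: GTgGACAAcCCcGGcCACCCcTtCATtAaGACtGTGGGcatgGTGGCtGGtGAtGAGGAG
Ckmt1: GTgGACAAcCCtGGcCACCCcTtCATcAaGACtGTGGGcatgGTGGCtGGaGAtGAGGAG
Against the Ckm window, Ckb differed at 13 bases, Ckmt2 at 10 and Ckmt1 at 9. Over whole aligned coding sequences Ckm was 75.9% identical to Ckb and 66.4% identical to Ckmt2, and the mitochondrial pair Ckmt2 and Ckmt1 was 71.1% identical. No run of 31 bases was shared between Ckm and any other creatine kinase. Ckmt2 and Ckmt1 shared 9 such runs, taken at every start position, so that overlapping runs count separately. The posterior standard deviation deposited with each count, which is above 0 where reads were shared out between genes, was 0 for every member but Ckb (1.22 and 0.95 counts).

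The promoters of the muscle-type kinases are shown because Ckm and Ckmt2 differed between the libraries in opposite directions, as described below. Each window runs from 250 bases before to 50 bases after a RefSeq start on build GRCm38.p6, read 5′ to 3′ on the gene's strand. Capitals mark E-boxes, the letters CANNTG that muscle regulatory factors and many other basic helix-loop-helix proteins bind.
Ckm, chr7:19410844-19411143, plus strand: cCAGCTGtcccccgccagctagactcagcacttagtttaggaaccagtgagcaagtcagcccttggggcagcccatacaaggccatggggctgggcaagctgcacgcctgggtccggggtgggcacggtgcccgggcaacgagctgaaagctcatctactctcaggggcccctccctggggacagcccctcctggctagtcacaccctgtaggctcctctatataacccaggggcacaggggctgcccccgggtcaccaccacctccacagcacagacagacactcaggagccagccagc
Ckmt2, chr13:91876836-91877135, minus strand: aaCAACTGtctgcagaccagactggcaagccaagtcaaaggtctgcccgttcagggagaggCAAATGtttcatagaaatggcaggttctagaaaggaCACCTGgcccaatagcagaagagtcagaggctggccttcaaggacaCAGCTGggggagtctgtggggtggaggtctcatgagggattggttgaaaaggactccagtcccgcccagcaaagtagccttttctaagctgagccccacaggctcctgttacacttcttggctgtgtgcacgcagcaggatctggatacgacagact
The Ckm window held 1 E-box, at its far end, and the Ckmt2 window held 4. Of 32851 mouse promoter windows of the same length, 72.3% held at least 1 and 6.49% held at least 4. A MEF2 site and a CArG box, searched on both strands, matched in neither window and were present in 3.19% and 1.63% of all windows. The matches describe the letters of the reference build and say nothing of binding. The alleles of these hybrid mice were not examined. RefSeq promoter windows were matched for 8 of the 10 members.

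Ckm was among the most abundant transcripts of the muscle and dwarfed the other members. It stood at 21853.6 TPM in replicate 1 and 16009.6 TPM in replicate 2, a mean of 18931.6 ± 4132.34 (SD, n = 2). It ranked 1 and 2 among nuclear protein-coding genes and held 4.77% and 3.65% of their summed level. Ckm lies at 19404776 to 19422841 on chromosome 7 (mm10, plus strand). Its level was 12559.5 times that of the lowest detected member in replicate 1 and 7083.89 times in replicate 2.

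Below Ckm came 3 genes of high level: Ak1, the cytosolic adenylate kinase, Ampd1, the muscle AMP deaminase, and Ckmt2, the sarcomeric mitochondrial creatine kinase. Ak1 (chromosome 2, 32621758 to 32635058, plus strand) was at 918.83 and 668.62 TPM in replicates 1 and 2. Ampd1 (chromosome 3, 103074014 to 103099720, plus strand) was at 665.2 and 552.43 TPM. Ckmt2 (chromosome 13, 91853387 to 91876885, minus strand) was at 340.85 and 636.28 TPM. Ak1 lay above Ampd1 in both libraries and above Ckmt2 in both, whereas Ampd1 and Ckmt2 changed places between the libraries and their ranges overlapped.

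The creatine transporter and the methyltransferase that completes creatine synthesis formed the next step down. Slc6a8 (X chromosome, 73673150 to 73682502, plus strand) was at 50.87 and 59.48 TPM. Gamt (chromosome 10, 80258151 to 80261012, minus strand), which methylates guanidinoacetate to creatine, was at 19.49 and 12.11 TPM. Their library values did not overlap with each other or with those of the genes above and below.

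The lowest detected genes were Ampd3, an AMP deaminase known from red blood cells, Ckb, the brain-type kinase, and Gatm, the amidinotransferase that makes guanidinoacetate. Ampd3 (chromosome 7, 110768206 to 110812405, plus strand) was at 1.74 and 6.39 TPM. Ckb (chromosome 12, 111669361 to 111672338, minus strand) was at 2.77 and 5.14 TPM. Gatm (chromosome 2, 122594467 to 122611303, minus strand) was at 2.8 and 2.26 TPM. The order of these 3 was opposite in the libraries, with Gatm highest and Ampd3 lowest in replicate 1 and Ampd3 highest and Gatm lowest in replicate 2, so the spread does not separate neighbours here.

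Ckmt1 (chromosome 2, 121357714 to 121363737, plus strand), the mitochondrial kinase of non-muscle tissues, had 0 counts in both libraries and in both quantifications. A count of 0 allows up to 3 counts, which corresponds to 0.119 TPM in replicate 1 and 0.109 TPM in replicate 2. None of its 10 annotated transcripts was detected, so it was not tested.

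**Figure D1:**
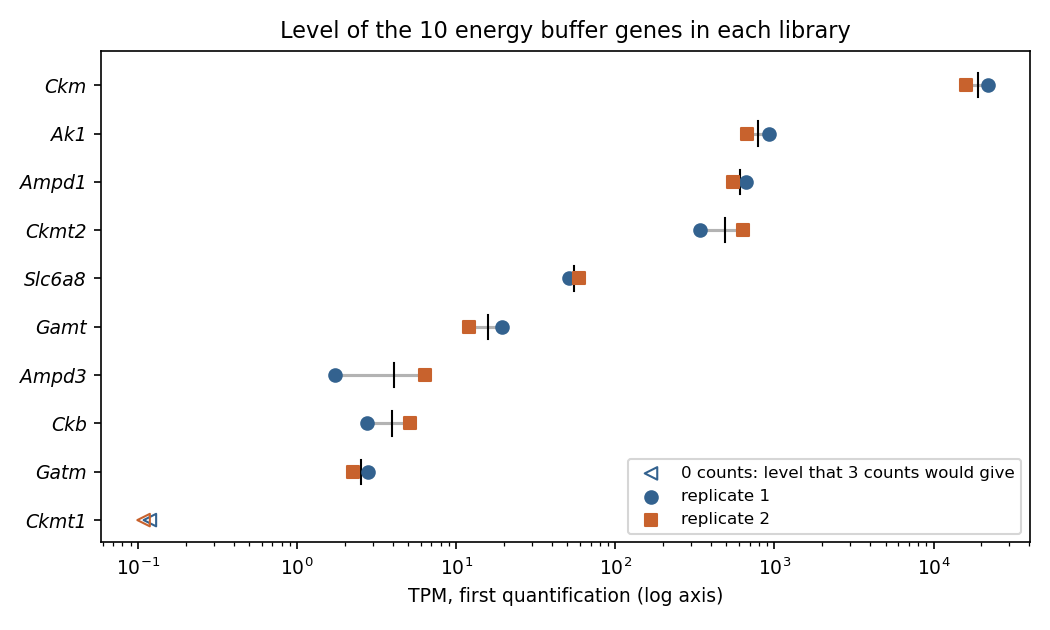
Level of each member in TPM (log axis) in replicate 1 (circles) and replicate 2 (squares), with a vertical tick at the mean of n = 2 and open triangles for the level that 3 counts of Ckmt1 would give. Ckm stands at 21853.6 and 16009.6 TPM, Ak1, Ampd1 and Ckmt2 follow, and Ampd3, Ckb and Gatm overlap at the bottom.

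Within the creatine kinase family the make-up was almost wholly cytosolic muscle-type. Ckm supplied 98.5% of the family's TPM in replicate 1 and 96.1% in replicate 2 (97.3% ± 1.63, SD, n = 2). Ckmt2 supplied 1.54% and 3.82%, and Ckb 0.0125% and 0.0309%. The TPM of Ckm was thus 64.1 times that of Ckmt2 in replicate 1 and 25.2 times in replicate 2. Shares inside a library do not depend on any scaling between libraries. In the second quantification, made directly from the reads, the Ckm share was 98.8% and 97.0%. There the TPM of Ckm was 83.1 and 32.9 times that of Ckmt2.

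The mitochondrial-to-cytosolic balance was the clearest difference inside the family. The odds of a kinase read coming from Ckmt2 and not from Ckm were 2.55 times higher in replicate 2 (95% interval 2.501 to 2.603, Fisher's exact test on rounded counts, counting error only), and 2.56 times higher in the second quantification. The odds of Ckb against Ckm were 2.51 times higher in replicate 2 (2.01 to 3.14). Both minor kinases therefore gained share on Ckm by a similar factor in the same library.

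Between the libraries, Ckm had 674099 counts in replicate 1 and 540184 in replicate 2, a scaled ratio of replicate 1 to replicate 2 of 1.41 (95% counting interval 1.41 to 1.42). Ckmt2 went the other way, with 14925 and 30518 counts, or 1.81 times higher in replicate 2 (1.77 to 1.84). Ckb was 1.77 times higher in replicate 2 (1.42 to 2.22) on 120.91 and 243.41 counts. None of these reached the 2-fold needed for a call, and 10.05% of all tested genes differed at least as far as Ckmt2, 10.7% as far as Ckb and 21.1% as far as Ckm. The biological coefficient of variation, the spread beyond counting noise that all genes of these 2 libraries gave, was 22.7%. When libraries were scaled to the spike-ins, which raised every log2 ratio by 0.22 relative to TMM, Ckmt2 (log2 ratio 1.07) and Ckb (1.04) did reach 2-fold, where 7.07% of all genes were called higher in replicate 2, and Ckm stayed lower in replicate 2 (-0.28).

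The difference in Ckmt2 stood beside differences in fibre and mitochondrial markers. The summed level of the 11 slow fibre genes was 255.7 TPM in replicate 1 and 2699.99 TPM in replicate 2, with a median log2 ratio of 3.32. Myh7, the slow myosin heavy chain, was at 29.39 and 311.61 TPM. Of 13 fast fibre genes, 11 were lower in replicate 2 by TMM and 10 by spike-in scaling, with a median log2 ratio of -0.53 beside -0.50 for Ckm and -0.51 for Ak1. Myh4, the heavy chain of the fastest fibres, was at 15963.6 and 11004.8 TPM. Myh1 and Myh2, the heavy chains of type IIx and IIa fibres, were called higher in replicate 2. All 12 nuclear genes of the mitochondrial content list were above 0, with a median log2 ratio of 0.28 and a highest value of 0.67, for Sdhb, a subunit of succinate dehydrogenase, and none was called. The log2 ratio of Ckmt2, 0.85, lay above all 12. The part of fibre make-up in the kinase values was not tested.

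For Ckb, which many non-muscle cells express, the lists of other cell types gave the following values. The 8 Schwann cell genes were all above 0, with 3 called and a median log2 ratio of 0.84, and summed to 30.8 and 45.2 TPM. With spike-in scaling, which raised every log2 ratio by 0.22, 5 of them were called and the median was 1.05. Smooth muscle and pericyte genes gave 2 called of 9, a median of 0.58 and a sum of 1150.1 and 1295.4 TPM, most of it Des, which muscle fibres express as well. Endothelial genes gave 2 called of 7, a median of 0.37 and a sum of 45.56 and 65.24 TPM. Adipocyte genes gave 3 of 6 called higher in replicate 2 and 1 called higher in replicate 1, with a median of 0.96. Their sum was 182.78 and 645.46 TPM, most of it the called gene Car3, at 161.43 and 610.56 TPM. The next most abundant gene of the list, Adipoq, was at 6.47 and 13.5 TPM. Whether the Car3 reads came from adipocytes or from muscle fibres was not tested. Macrophage genes gave 0 called of 5 with a median of 0.24, and fibroblast genes 0 of 5 with a median of 0.15. The log2 ratio of Ckb was 0.82, and the part of these cells in it was not tested.

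**Figure D2:**
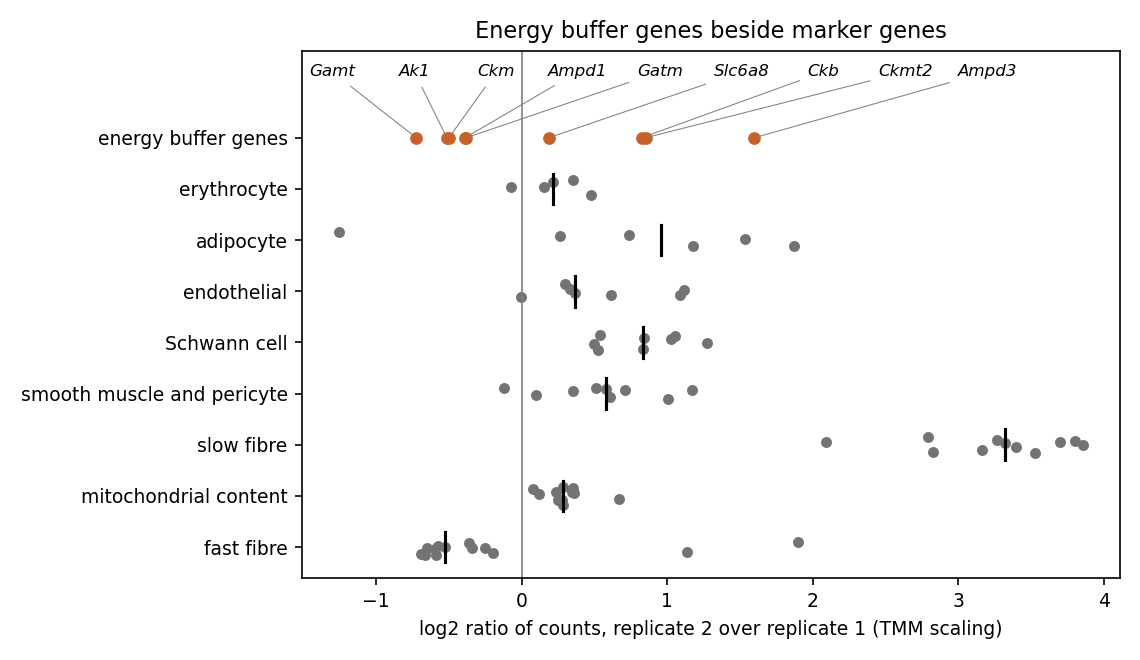
Log2 ratio of replicate 2 to replicate 1 (TMM scaling) for the 9 energy buffer genes with counts and for the genes of 8 marker lists, 1 point per gene, with a bar at each list's median. Ckm and Ak1 lie at the fast fibre median of -0.53, Ckmt2 lies above the 12 mitochondrial genes, and the slow fibre genes lie beyond 2.09.

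The partners of creatine kinase were a list of 10 genes of the mitochondrial transport complex and the sarcomere's M-band. Of these, 1 of 9 tested was called higher in replicate 2 and none higher in replicate 1. The median log2 ratio by TMM was -0.05, against 0.01 over all tested genes. By spike-in scaling, which raised every log2 ratio by 0.22, the median of the list was 0.17. Slc25a4, the muscle ADP/ATP carrier with which mitochondrial creatine kinase works, was at 1100.51 and 1252.52 TPM. Vdac1, the outer membrane channel, was at 581.37 and 620.8 TPM. The called gene was Myom3, a myomesin of the M-band, the structure that anchors Ckm, at 2.63 and 33.03 TPM (log2 ratio 3.80). The other listed myomesins were more abundant and were not called. Myom1 was at 554.05 and 537.42 TPM and Myom2 at 428.33 and 332.42 TPM (log2 ratios -0.12 and -0.41 by TMM). The log2 ratios of Slc25a4 and Vdac1 were 0.14 and 0.08, against 0.85 for Ckmt2, and the difference between these values was not tested.

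The genes that supply creatine stood well below the kinases of muscle type. Slc6a8 had 5111 and 6588 counts, 1.14 times higher in replicate 2 (1.097 to 1.181), and 53.3% of all tested genes differed at least as far. Gamt had 543 and 372 counts and was 1.65 times higher in replicate 1 (1.45 to 1.89), the largest difference in that direction among the members. Gatm had 200 and 174 counts, 1.30 times higher in replicate 1 (1.06 to 1.60), with the weakest count evidence of the members (adjusted p = 0.0337, exact binomial test). That p was 0.0381 with DESeq2 size factors, but missed 0.05 with total counts (0.0618), in the second quantification (0.0842) and with spike-in scaling (0.407) in the same exact test. The enzyme of the first step was thus at 2.53 ± 0.38 TPM and that of the last step at 15.8 ± 5.22 TPM (SD, n = 2), while the transporter was at 55.2 ± 6.09 TPM.

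Other genes around creatine supply were described from lists. Of 10 tested genes of arginine and methyl donor supply, 2 were called higher in replicate 2 and none higher in replicate 1 (median log2 ratio 0.08, the same with the gene at 0 set to its bound). By TMM 5 were above 0 and 5 below. With spike-in scaling, which raised every log2 ratio by 0.22, 8 were above and 2 below, with a median of 0.30. Oat, ornithine aminotransferase, was the most abundant at 70.85 and 63.25 TPM, followed by Mat2a, the methionine adenosyltransferase of most tissues, at 50.07 and 41.3 TPM. The called genes were scarce: Ass1, argininosuccinate synthase, was at 1.25 and 2.47 TPM, and Mat1a, the liver methionine adenosyltransferase, was listed with no count in replicate 1 and 32 in replicate 2. Against a floor of 3 counts per library that is at least 9.42-fold higher in replicate 2. Of 9 listed relatives of Slc6a8 in its transporter family, 5 were tested and 2 were called higher in replicate 2. These were Slc6a17, with 38 and 194 counts, and Slc6a13, with only 5 and 20. Over all tested genes, 4.47% were called in that direction. The taurine transporter Slc6a6 was the most abundant relative at 27.22 and 33.98 TPM, below Slc6a8, and the glycine transporter Slc6a9 was at 1.92 and 2.42 TPM.

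On the adenine nucleotide side, Ak1 made up 94.2% and 92.0% of the summed TPM of 9 adenylate kinases in replicates 1 and 2. Ak6, a nuclear relative, supplied 3.1% and 4.3%, and Ak3 of the mitochondrial matrix 1.55% and 1.94%. Ak1 had 54614 and 43348 counts and was 1.43 times higher in replicate 1 (1.41 to 1.45), close to the ratio of Ckm. Of the 4 other adenylate kinases tested, only Ak4, a mitochondrial member of the family, was called (1.12 and 2.06 TPM, higher in replicate 2). Its log2 ratio was 1.005, barely past the 2-fold rule, on 96.71 and 220.63 counts. Ak6 and Ak3, the most abundant relatives, were at 30.23 and 31.36 TPM and at 15.09 and 14.09 TPM.

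The AMP deaminases showed the largest relative difference among the members. Ampd1 made up 99.5% and 98.6% of the family's TPM. It had 38088 and 32958 counts and was 1.31 times higher in replicate 1 (1.29 to 1.33). Ampd3 had 190 and 653 counts and was 3.03 times higher in replicate 2 (2.58 to 3.59, adjusted p = 4.83e-47, exact binomial test), a log2 ratio of 1.60. It was the only member called, 1 of 9 tested, where 4.47% of all tested genes were called in that direction, and 2.75% of tested genes differed at least as far. The odds of Ampd3 against Ampd1 were 3.97 times higher in replicate 2 (3.37 to 4.70, Fisher's exact test). Even so, Ampd3 remained at 1.14% of the family in replicate 2, after 0.260% in replicate 1. Ampd2, the third AMP deaminase, supplied 0.221% and 0.268%.

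Because 1 library stands on each side, the call on Ampd3 rests on counting error. With edgeR's exact test and the common dispersion of the same 2 libraries, which called 1.82% of genes, no member was called, Ampd3 had an adjusted p of 0.0612, and 1 member had an unadjusted p below 0.05. That dispersion comes from the same difference it tests. Erythrocyte genes, the source for which Ampd3 is best known, summed to 370.52 and 483.07 TPM with 0 of 5 called. The log2 ratio of Ampd3 was 1.60, those of the erythrocyte genes ran up to 0.48 and those of the slow fibre genes from 2.09. The part of these cells and fibres in the value of Ampd3 was not tested. Rnf141 overlaps Ampd3 on the opposite strand and had 766 and 827 counts, and the sources used here do not state whether the counting used strand.

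The start region of the leading Ampd3 transcript, Ampd3-201, is shown because it is the transcript with most of the counts in both libraries. Capitals mark its 3 E-boxes, and 17.6% of all windows held at least 3.
Ampd3, chr7:110772354-110772653, plus strand: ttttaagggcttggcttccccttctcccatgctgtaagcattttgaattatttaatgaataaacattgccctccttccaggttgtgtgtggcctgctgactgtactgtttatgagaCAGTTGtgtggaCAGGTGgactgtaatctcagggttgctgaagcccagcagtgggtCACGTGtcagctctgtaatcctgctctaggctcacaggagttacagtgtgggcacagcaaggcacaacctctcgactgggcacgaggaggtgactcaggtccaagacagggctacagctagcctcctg
Ampd3-201 took 128.41 counts in replicate 1 and 499.44 in replicate 2. Ampd3-206, which starts upstream and has the same coding length of 2298 bases, took 0 and 116.2. Ampd3-208 took 49.62 and 0. On so few counts the assignment among transcripts varied, and the second quantification gave Ampd3-208 counts in both libraries (30.1 and 83.5).

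**Figure D3:**
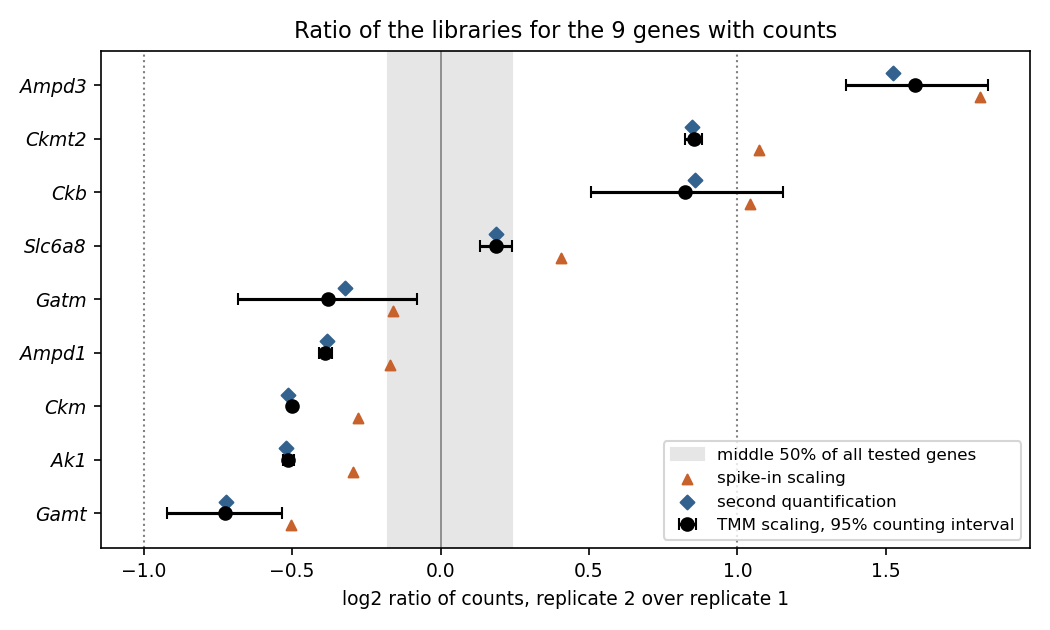
Log2 ratio of counts, replicate 2 over replicate 1, for the 9 members with counts. Circles give TMM scaling with 95% counting intervals, triangles spike-in scaling, diamonds the second quantification, the grey band the middle 50% of tested genes (-0.18 to 0.24) and dotted lines 2-fold. Ampd3 lies beyond 2-fold in all 3, and Ckmt2 and Ckb with spike-in scaling.

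Around the AMP deaminases, the purine nucleotide cycle and AMP breakdown list gave 1 call higher in replicate 2 among 12 tested genes and none higher in replicate 1 (median log2 ratio -0.13 by TMM and 0.09 by spike-in scaling). Adssl1, the muscle adenylosuccinate synthase that returns IMP towards AMP, was at 435.86 and 411 TPM. Adsl, the lyase that completes the cycle, was at 67.97 and 67.19 TPM. The synthase was thus below Ampd1 in both libraries, and the lyase below both. The called gene was Nt5c2, a cytosolic nucleotidase that prefers IMP and GMP, at 2.14 and 4.79 TPM. No gene of the 10 in adenine nucleotide salvage and supply was called (median -0.03 by TMM and 0.19 by spike-in scaling). In both lists the spike-in median includes the 0.22 by which that scaling raised every log2 ratio. Adk, adenosine kinase, was at 31.2 and 46.63 TPM, and Prps1, a phosphoribosyl pyrophosphate synthetase, at 17.99 and 17.22 TPM.

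Over the 9 members with counts, 4 were above 0 and 5 below 0 in log2 ratio, with a median of -0.38 against 0.01 for all tested genes, whose middle 50% ran from -0.18 to 0.24. An adjusted p below 0.05 was reached by 9 of 9 members and by 35.4% of all tested genes, a share that grows with counts. With spike-in scaling, total counts or the second quantification 8 of 9 members reached it, all but Gatm. With the 2-fold rule 1 of 9 (11.1%) was called, against 6.18% of all genes. With a 1.5-fold rule 4 were called, namely Ckb, Ckmt2 and Ampd3 higher in replicate 2 and Gamt higher in replicate 1, against 11.8% of all genes. The direction of all 9 was the same with TMM, DESeq2, total-count and spike-in scaling and in the second quantification.

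The Ckm reads were divided over 3 transcripts in GENCODE M21. Ckm-201 took 59.6% and 58.4% of the gene's TPM in replicates 1 and 2, Ckm-202 took 37.1% and 38.0%, and Ckm-203 took 3.33% and 3.58%. The 212-base exon at 19414119 to 19414330 on chromosome 7 is absent from Ckm-201 and present in the other two. It holds the first 193 coding bases of Ckm-203, whose coding sequence of 1143 bases (381 codons) equals that of Ckb in length. Ckm-201 is annotated with a coding sequence of 936 bases (312 codons). The first 60 coding bases of Ckm-203, which Ckm-201 lacks, are shown with the start codon in capitals.
Ckm-203 coding start: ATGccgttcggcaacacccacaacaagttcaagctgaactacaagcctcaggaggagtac
Ckm-202 carries the exon but is annotated as a processed transcript without a coding sequence: it starts upstream, is 671 bases long and ends 6051 bases before the end of Ckm-201. Ckm-203 runs 1257 bases past that end. No listed transcript therefore joins the exon to the end used by Ckm-201. The RefSeq record of Ckm has 1 transcript, on chromosome 7 from 19411094 to 19421583 (GRCm38.p6), and its end lies 1 base from that of Ckm-201.

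The division of Ckm reads was close between the libraries. By counts, Ckm-202 held 21.7% and 22.3% of the gene and Ckm-203 9.0% and 9.7%. In the second quantification Ckm-201 had 51.7% and 50.7% of the gene's TPM and Ckm-202 stood at 47.8% and 48.9%. Ckm-203 was lower there than in the first, at 0.455% and 0.420% of TPM and 1.74% and 1.63% of counts. The gene's effective length, which divides its counts in the TPM, was 977.06 and 975.73 bases, below the 1235-base length of Ckm-201. Counted without any length scaling, Ckm still made up 96.2% of the family. Which molecules these reads came from was not tested. The antisense gene A930016O22Rik, which overlaps Ckm, had 49 and 35 counts.

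**Figure D4:**
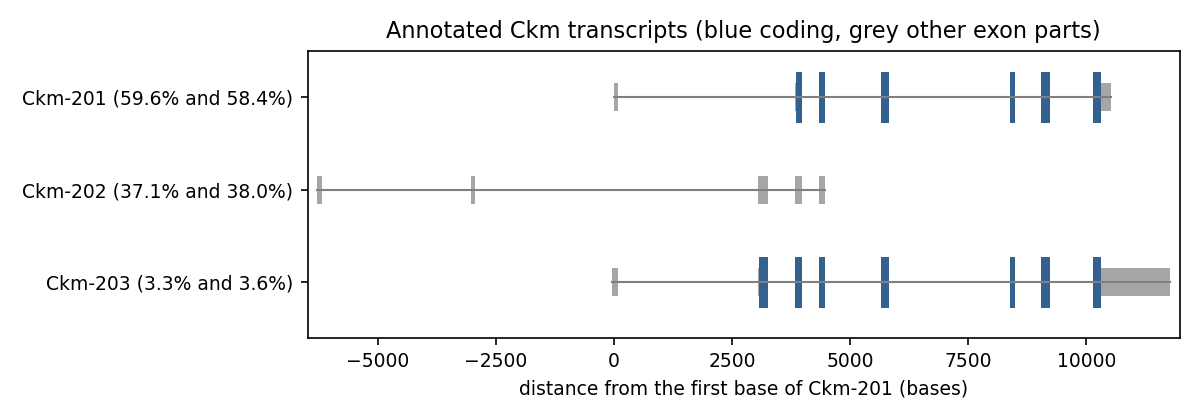
The 3 annotated Ckm transcripts drawn to scale, as distance in bases from the first base of Ckm-201, with coding parts in blue, other exon parts in grey and each transcript's share of TPM in replicates 1 and 2 beside its name. The exon with the first coding bases of Ckm-203 is present in Ckm-202 and absent from Ckm-201, which takes 59.6% and 58.4%.

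For Ak1 the 2 quantifications disagreed on which transcript, and hence which start, was used. In the first, Ak1-202 took 94.8% and 94.4% of the gene's TPM and Ak1-201 took 0.17% in each library. In the second, Ak1-201 took 55.5% and 54.2%, the retained-intron transcript Ak1-204 took 44.2% and 45.2%, and Ak1-202 averaged 0.0796%. Within each method the replicates lay close together. The transcripts differ at the 5′ end. Ak1-202 starts at 32625437 on chromosome 2 and Ak1-201 at 32629504, and Ak1-201 codes for 48 more bases (630 against 582). The coding starts are shown with each transcript's own first coding bases in capitals and the shared next exon in lower case.
Ak1-201: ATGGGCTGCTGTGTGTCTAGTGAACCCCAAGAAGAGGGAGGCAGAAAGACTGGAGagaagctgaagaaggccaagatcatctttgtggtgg
Ak1-202: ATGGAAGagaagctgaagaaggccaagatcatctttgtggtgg
The capital letters are thus the stretch in which the encoded enzyme would differ by method.

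The RefSeq promoter windows at or near the starts of Ak1-202 and Ak1-201 are shown for the same reason. Those at the starts of Ak1-203 and Ak1-205 are not shown. Capitals mark E-boxes and, in the window at the start of Ak1-202, a MEF2 match that overlaps the letters TATAAA, which 13.6% of all windows hold. This match begins at base 21 of the transcribed part, so it lies downstream of the annotated start and not before it.
Ak1 at the start of Ak1-202, chr2:32625187-32625486, plus strand: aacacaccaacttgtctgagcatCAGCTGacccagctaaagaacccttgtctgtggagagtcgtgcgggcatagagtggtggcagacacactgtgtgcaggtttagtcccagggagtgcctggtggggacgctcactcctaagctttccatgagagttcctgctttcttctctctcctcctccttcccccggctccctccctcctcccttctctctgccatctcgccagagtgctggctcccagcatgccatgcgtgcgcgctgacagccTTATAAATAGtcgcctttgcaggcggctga
Ak1 near the start of Ak1-201, chr2:32629250-32629549, plus strand: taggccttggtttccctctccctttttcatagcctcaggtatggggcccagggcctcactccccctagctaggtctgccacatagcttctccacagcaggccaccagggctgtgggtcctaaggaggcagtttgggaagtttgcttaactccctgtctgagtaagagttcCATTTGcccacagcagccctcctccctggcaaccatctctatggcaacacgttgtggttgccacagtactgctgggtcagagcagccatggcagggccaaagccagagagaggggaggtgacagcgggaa
The first window held 10 CG pairs and the second 2, against a median of 7 over all windows. The gene-level value of Ak1 also moved most with the method: the second quantification gave 1904.6 and 1310.36 TPM, or 2.07 and 1.96 times the first, where the median protein-coding gene gave 1.40 and 1.32 times over 10032 genes. That placed Ak1 above 94.2% and 94.7% of them. Its counts in the second quantification were 106% of those in the first in both libraries. The library ratio of Ak1 was almost unmoved, at a log2 ratio of -0.52 in the second quantification against -0.51 in the first.

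**Figure D5:**
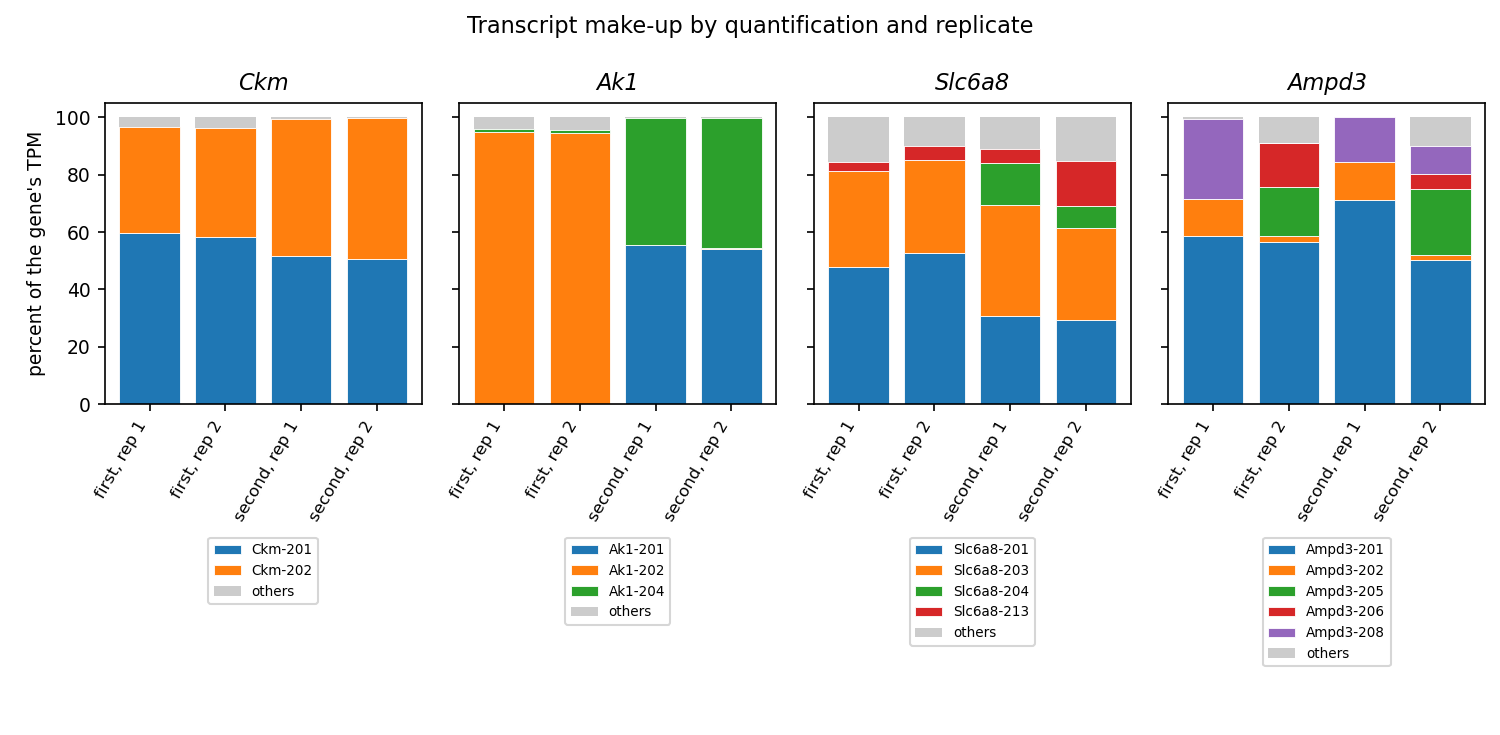
Percent of each gene's TPM by transcript for Ckm, Ak1, Slc6a8 and Ampd3, in the first and second quantification and in replicates 1 and 2, with transcripts that stay below 10 percent in every bar pooled as others. Replicates resemble each other for Ckm and Ak1, and the methods differ for Ak1, with Ak1-202 leading in the first and Ak1-201 and Ak1-204 in the second.

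Of the remaining members, Ckmt2 has a single annotated transcript. Ckb-201 took 94.9% and 93.3% of Ckb, Gatm-201 took 98.2% and 96.1% of Gatm, and Gamt-202 took 95.6% and 96.5% of Gamt. Ampd1-201, with 745 codons, took 74.0% and 68.5% of TPM but 91.5% and 89.1% of counts, since the next transcripts, Ampd1-203 and Ampd1-204, are short fragments of 579 and 751 bases. Slc6a8 was spread over 13 annotated transcripts. Slc6a8-201 took 47.8% and 52.7% and Slc6a8-203 took 33.4% and 32.3% in the first quantification, against 30.8% and 29.5%, and 38.6% and 31.8%, in the second. The order of its leading transcripts thus depended on the method.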

How the data were processed

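Total RNA-seq was deposited for 2 libraries of 1 group. Build mm10 is given per the labels and annotation GENCODE M21 per the submitters' processing notes. Aligner and quantification programs: not given in the sources used here. From a transcriptome alignment, the authors made a gene table and a first transcript table, and they made a second transcript table directly from the reads, per the file lists deposited with each sample. Deposited expected counts (first) and estimated counts (second) were rounded for every count test. The deposited TPM is scaled by effective length and library total. The deposited FPKM served as an alternative for the family shares. The deposited percent of isoform use divides a gene's TPM over its transcripts. The deposited posterior standard deviation of each count, a score of read sharing, was used to mark ambiguous genes.

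The 10 members and all lists were chosen with earlier results of these data known. Every member is named, with the 2 most abundant and every called gene of each of 6 pathway lists. Named as well are the other listed myomesins, and marker genes beside the member they move with. Some genes of the lists are not reported here. Other marker lists gave no call of 5 tested macrophage genes, none of 5 fibroblast genes, 4 of 6 adipocyte genes (3 higher in replicate 2) and 1 of 3 brown adipocyte genes.

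Libraries were scaled with TMM (edgeR 4.0.16, replicate 2 to 1 factor 1.13). Genes whose counts averaged 10 or more entered a 2-sided exact binomial test (scipy 1.17.1) with Benjamini-Hochberg adjustment over 14959 genes. Log2 ratios use scaled counts + 0.5, and ratios with intervals (exact, 95%) leave the 0.5 out. With 1 group, edgeR's quasi-likelihood test could not be fitted. On simulated data for this comparison, with 14989 genes tested, 91.0% of 200 genes changed 3-fold were recovered and 1 unchanged gene was called. The simulated counts held counting error only, so these figures give no rate of false calls between real libraries, which differ by more. Intervals and floors cover counting error only. Alternatives were DESeq2 1.42.0 size factors, total counts, spike-ins, other filters, thresholds and added counts, TPM + 0.5, edgeR's exact test and the second quantification. Promoters are from RefSeq (GRCm38.p6) and coding sequences from GENCODE M21. Both are reference sequences, and the alleles of these hybrid mice were not examined. Protein sequences were not used here.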

Additional observations from a re-analysis of the deposited data

How the results depend on the processing

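The number of members called was 1 with TMM, where 6.18% of all tested genes were called. It was also 1 with DESeq2 size factors, total counts, the second quantification, no filter and a mean count of at least 100. It was 3 with spike-in scaling (Ckb, Ckmt2 and Ampd3), where 7.07% of all genes were called higher in replicate 2. With a 1.5-fold threshold it was 4, where 11.8% of all genes were called. It was 0 with edgeR's exact test, which called 1.82% of genes and by construction adds dispersion to counting error. Of 54 alternative values of the log2 ratios, none changed direction, Gatm lost its adjusted p below 0.05 in 3 (0.0618 to 0.407, exact binomial test), and 2 newly passed 2-fold (Ckb 1.04 and Ckmt2 1.07, spike-in scaling). The Ckm share of creatine kinase TPM ran from 96.1% to 98.5% when either library was left out, and the odds ratio of Ckmt2 to Ckm was 2.55 and 2.56. All 9 mean levels were 2.22 to 2.26 times higher when TPM was rescaled over nuclear protein-coding genes. The mean leading isoform share differed between quantifications by more than the replicate SD of the first for all 8 genes with several transcripts and counts. For Ampd3, the replicates of the second quantification (71.2% and 50.1%) enclosed those of the first (58.5% and 56.6%). The cause of the differences between quantifications was not tested. Leaving out a library leaves no test. At 1 library a side, Gatm, Ckb and Ampd3 are limited by their low counts. No paired analysis was possible because the series has 1 group.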
